A study of Mus musculus with 6 samples.

Results

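The genes described here encode the enzymes and carriers that remove superoxide and peroxides or work with glutathione and thioredoxin. The rule that picks them is a pattern of gene names and uses no measured value. It takes the glutathione S-transferases (Gst and Mgst genes), glutathione peroxidases (Gpx), peroxiredoxins (Prdx), superoxide dismutases (Sod), catalase (Cat), the thioredoxins Txn1 and Txn2 with their reductases (Txnrd) and Txnip, the glutathione synthesis and recycling genes Gclc, Gclm, Gss and Gsr, and Nqo1, Nqo2 and Srxn1. In all, 56 of the 37074 gene names on the array met the rule, with 87 probes between them. Testing required a signal well above background throughout either group of 3 arrays, and 50 of the 56 genes met this. Each of these 50 was well above background on all 6 arrays and none was saturated. The 6 genes that were not tested were Gpx5, Gpx6, Gsta4, Gstm7 and Prdx6b, not well above background on any array, and the pseudogene Gpx2-ps1, well above background on 2 control arrays only.

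The study asked what the calcium-activated chloride channel anoctamin 1, encoded by Ano1, does in osteoclasts, the multinucleated cells of the monocyte lineage that resorb bone. RNA came from cultures of bone marrow cells of 3 Ano1fl/fl mice, the littermate controls, and of 3 Ctsk-Cre;Ano1fl/fl mice, and each RNA was read on 1 array of a single dye. Both groups carried the floxed Ano1 allele and had been given RANKL, the cytokine that drives osteoclast formation, for 5 days. The general methods give an age of 6 to 8 weeks for mice used as marrow donors, and a culture of 1 day in M-CSF at 10 ng/ml before 30 ng/ml M-CSF with 50 ng/ml RANKL. Cre was driven by the promoter of the cathepsin K gene, which is active in osteoclasts and late in their formation, so that precursors and other marrow cells in the dish would largely keep the allele. The arrays labelled Ano1fl/fl are called control arrays below and those labelled Ctsk-Cre;Ano1fl/fl are called Cre arrays. The Ano1 probe was not well above background on any of the 6 arrays, so it could not check these labels, and every direction is that of the labels.

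Reactive oxygen species are made on purpose by osteoclasts and their precursors, where RANKL engages NADPH oxidases, and as a by-product of mitochondrial respiration. Superoxide dismutases turn superoxide into hydrogen peroxide, which catalase, glutathione peroxidases and peroxiredoxins then reduce. The reducing power comes from glutathione and thioredoxin, both recharged with NADPH, and glutathione S-transferases join glutathione to reactive compounds. Many of these genes are targets of the transcription factor NRF2, which binds the antioxidant response element.

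The short sequences below are those that members could share at their promoters. The core of the antioxidant response element, TGACNNNGC, was looked for on both strands in the RefSeq promoter windows (GRCm38.p6), which run from 250 bases before to 50 bases after a start site. It was present for 9 of the 48 members with a window (18.8%), against 3781 of 27025 genes with a window (14%). A match of letters is a description and not evidence of binding. The windows are shown on the strand that carries the motif, with the motif in capitals.
Gclm, chr3:122245413-122245441, minus strand: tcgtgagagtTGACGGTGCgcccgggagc
Gsta3, chr1:21240454-21240482, plus strand: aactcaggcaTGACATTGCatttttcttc
Gstm5, chr3:107895802-107895830, plus strand: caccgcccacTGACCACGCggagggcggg
Gstm7, chr3:107931725-107931753, minus strand: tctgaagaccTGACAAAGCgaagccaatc
Mgst1, chr6:138140461-138140489, minus strand: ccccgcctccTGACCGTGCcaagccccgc
Prdx1, chr4:116685456-116685484, minus strand: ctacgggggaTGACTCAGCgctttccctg
Sod1, chr16:90220696-90220724, minus strand: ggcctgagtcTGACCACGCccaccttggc
Srxn1, chr2:152105542-152105570, minus strand: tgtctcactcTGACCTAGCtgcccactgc
Txnrd1, chr10:82859104-82859132, minus strand: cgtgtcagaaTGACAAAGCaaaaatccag

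Of these 9 genes Gstm7 was not tested. Among the other 8, Gsta3 and Txnrd1 were higher on the Cre arrays, Sod1 was lower, and 5 did not pass (Gclm, Gstm5, Mgst1, Prdx1 and Srxn1), with a median log2 difference of 0.28. Of the 37 tested members with a window but no match, 12 were higher, 11 were lower and 14 did not pass, with a median of 0.14. Of the 10 genes that changed by more than 2-fold, 9 had a window and none of these held a match.

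Each of those 10 genes was read by a probe of 60 bases, and the first 30 bases are shown for 9 of these probes because the largest differences rest on them. Positions are those of the whole probe in mm9, as the array files give them. The Gstm6 probe spans more than its own length on the genome, as a probe across a splice junction does. The longest run shared by probes of different member genes was 13 bases, between Gstp2 and Txnrd2.
Sod3, chr5:52760685-52760744: ccttagagagagtatttgggaacctttatg
Sod2, chr17:13210864-13210923: ctgttagacctgacaggattagctgtagta
Gpx7, chr4:108073303-108073362: ccttcactcctcagaggacaaatcctaaga
Gstm2, chr3:107784622-107784681: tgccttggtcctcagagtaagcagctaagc
Gstm6, chr3:107745662-107746199: acaggctatgaagagaggagatacgccatg
Gsta2, chr9:78178856-78178915: gccacagatactggcctctaattgtttgca
Gstk1, chr6:42200381-42200440: acaagtgccttttgaaaagccttaaattct
Gstt3, chr10:75236966-75237025: gttgcttggtatgtcctgactttccaaatt
Gstt1, chr10:75246560-75246619: actataatcactactttccccttgagtctg

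Before the results, the arrays themselves are described. Of 59305 transcript spots, 33480 to 34951 per array were well above background, and the 6 arrays came from 1 slide scanned on 1 day. Arrays of a group correlated at 0.995 to 0.997 over the tested genes and arrays of different groups at 0.947 to 0.951. Cell type markers moved with the groups. All 12 osteoclast markers were tested, 11 were higher and 1 lower on the Cre arrays, and their summed signal was 162921 to 176202 on the control arrays and 558990 to 637308 on the Cre arrays. This direction is opposite to the one the study describes for osteoclast formation in its Ctsk-Cre;Ano1fl/fl cultures, and it bears on every direction given by label below. Of 19 tested stromal and osteoblast markers 15 were higher and 2 lower, with sums of 4702 to 5735 against 76945 to 125700. Of 9 B cell markers 8 were higher and 1 lower, with sums of 38782 to 43352 against 90179 to 123443. Of 13 neutrophil markers 9 were lower and 2 higher, with sums of 372557 to 391622 against 238846 to 291715, and of 12 macrophage markers 6 were lower and 1 higher, with sums of 672726 to 692143 against 605494 to 644290. No marker of these 5 lists that was on the array lacked signal above background on all arrays, and the part of these shifts in the results below was not tested. In bulk RNA, fewer cells of a type and less RNA per cell cannot be told apart.

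The superoxide dismutase that is secreted and the one in mitochondria rose, together with the endoplasmic reticulum peroxidases Gpx7 and Gpx8, and the theta class transferases Gstt1 and Gstt3 fell. Of the 50 tested members, 16 were higher and 13 were lower on the Cre arrays at a limma adjusted p under 0.05, and 21 did not pass. Over all 20645 genes tested, 23.4% were higher and 29% were lower by the same rule, and in either direction 58% of the members passed against 52.4% of all genes and 52.4% of all probes. More than 2-fold changes were found for 6 members that were higher and 4 that were lower, against 9.88% of all genes higher and 7.19% lower. The values of the groups did not overlap for 36 of the 50 members, against 64% of all genes. The median log2 difference was 0.17 over the members and -0.06 over all genes, and the median size of the difference was 0.46 against 0.35. The share of members that changed was thus near that of all genes, and the changes went both ways within most families.

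**Figure D1:**
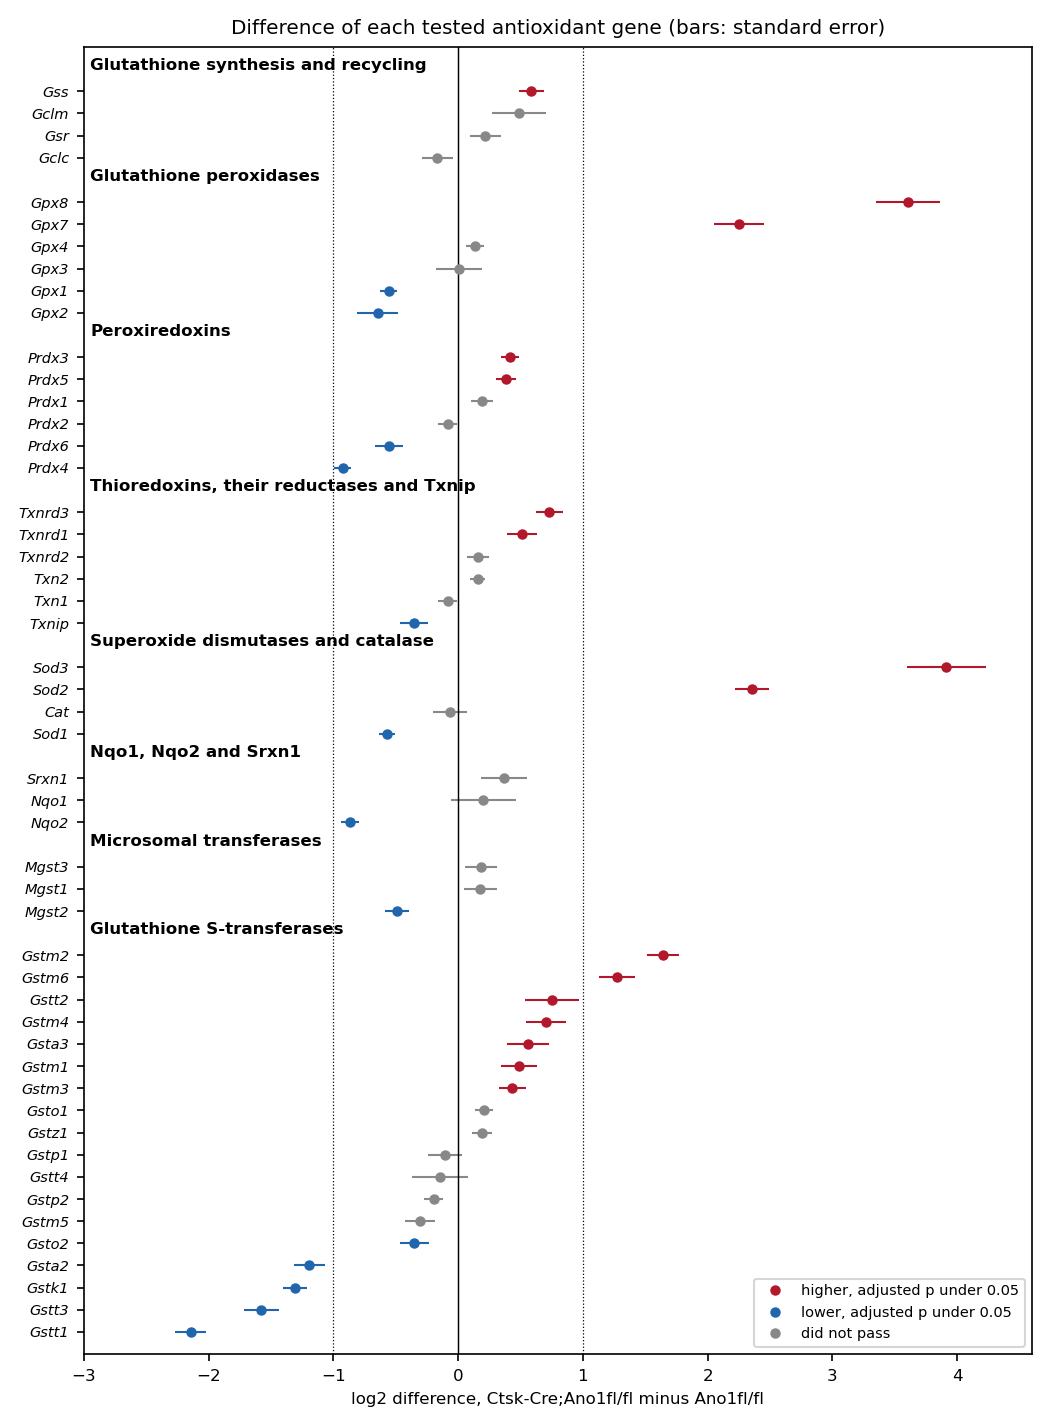
The log2 difference of normalized signal, Ctsk-Cre;Ano1fl/fl minus Ano1fl/fl, is on the horizontal axis for each of the 50 tested genes, grouped by family, with bars for the standard error (3 arrays per group) and dotted lines at 2-fold. Red genes were higher and blue genes lower at a limma adjusted p under 0.05, and the points run from -2.14 for Gstt1 to 3.91 for Sod3.

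Of the superoxide dismutases and catalase, Sod2 and Sod3 were higher on the Cre arrays, Sod1 was lower and Cat did not pass. Sod3, the secreted enzyme that binds extracellular matrix, had log2 signals of 6.50, 6.25 and 6.18 on the control arrays and 10.96, 9.91 and 9.78 on the Cre arrays. Every Cre array was far above every control array, and the spread was wider among the Cre arrays. This was a 15.1-fold rise (log2 difference 3.91, standard error 0.32, limma adjusted p = 0.000219). It was 8.89-fold under the normexp background correction, an alternative that raises low signals. The osteoclast, stromal and B cell markers, whose sums are given above, were mostly higher on the same arrays, and their part in the rise of Sod3 was not tested.

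Sod2, the manganese enzyme of mitochondria, had log2 signals of 11.81, 11.54 and 11.45 on the control arrays and 13.79, 14.13 and 13.94 on the Cre arrays. The groups did not overlap, and the 5.12-fold rise was 2.36 on the log2 scale (standard error 0.13, limma adjusted p = 6.18e-05). Sod1, the copper and zinc enzyme of the cytosol, went the other way, from 16.34, 16.34 and 16.31 to 15.76, 15.79 and 15.72. Its arrays lay close together within each group, and the 1.49-fold fall was -0.57 on the log2 scale (standard error 0.06, limma adjusted p = 0.000636). A dimmer Sod1 probe had a log2 difference of -0.87.

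Cat, which encodes the peroxisomal enzyme that splits hydrogen peroxide, had log2 signals of 13.82, 13.41 and 13.49 on the control arrays and 13.64, 13.54 and 13.35 on the Cre arrays. The groups overlapped (difference -0.06, standard error 0.13, limma adjusted p = 0.709). Its sign was positive without the first control array (0.06) and without the third Cre array (0.01).

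**Figure D2:**
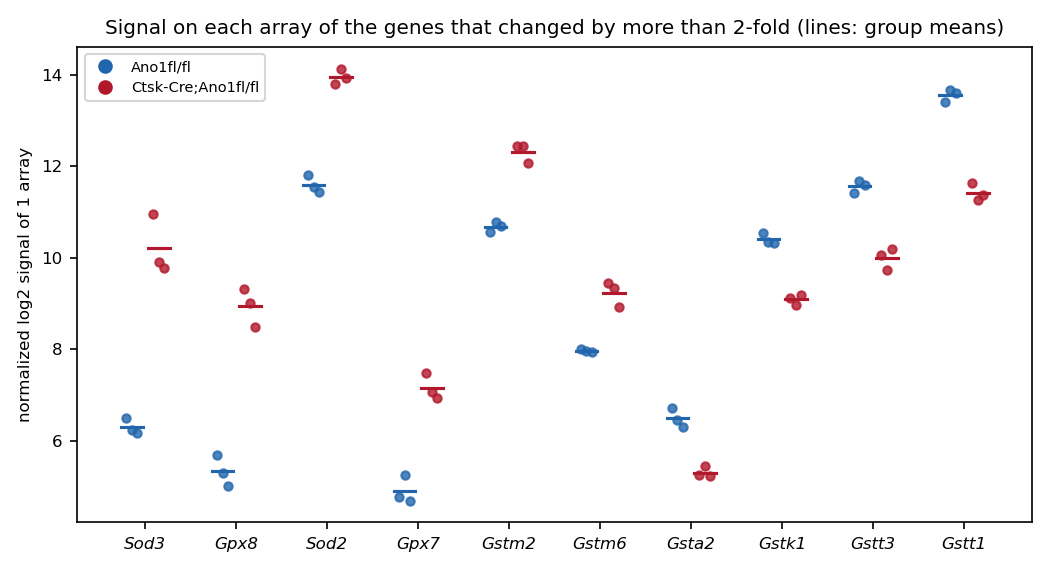
Normalized log2 signal on each of the 6 arrays (vertical axis) for the 10 genes that passed limma and changed by more than 2-fold, with points for arrays, blue for Ano1fl/fl and red for Ctsk-Cre;Ano1fl/fl, and lines for group means. In each gene the 3 arrays of a group lie apart from the 3 of the other, and levels of different genes are not comparable because each has its own probe.

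Among the glutathione peroxidases, 6 of 9 were tested, and Gpx7 and Gpx8 were higher, Gpx1 and Gpx2 were lower and Gpx3 and Gpx4 did not pass. Gpx8, a membrane protein of the endoplasmic reticulum, had log2 signals of 5.69, 5.29 and 5.02 on the control arrays and 9.33, 9.0 and 8.49 on the Cre arrays. The groups lay far apart in a 12.2-fold rise (log2 difference 3.61, standard error 0.26, limma adjusted p = 0.000137). Gpx7, its close relative in the same compartment, had log2 signals of 4.78, 5.26 and 4.69 against 7.48, 7.06 and 6.95. This was a 4.77-fold rise without overlap (log2 difference 2.25, standard error 0.20, limma adjusted p = 0.000324). Both were dim on the control arrays, and their folds depended on how background was handled. With normexp they were 5.25-fold for Gpx8 and 2.24-fold for Gpx7, and with the spot medians of the series matrix, from which no background is subtracted, 7.34-fold and 2.87-fold. The shift of the osteoclast, stromal and B cell markers in the same direction stands beside these rises too, and its part was not tested.

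Gpx1, the abundant selenoenzyme of the cytosol, had log2 signals of 17.02, 17.07 and 17.02 on the control arrays and 16.52, 16.51 and 16.41 on the Cre arrays. All Cre arrays were below all control arrays, a 1.47-fold fall (log2 difference -0.56, standard error 0.07, limma adjusted p = 0.000974). Gpx4, which reduces lipid peroxides in membranes and guards against ferroptosis, had log2 signals of 15.25, 15.28 and 15.19 against 15.39, 15.43 and 15.30. Its groups did not overlap, but 0.14 on the log2 scale did not pass (standard error 0.07, limma adjusted p = 0.153). Gpx2, best known from the gut epithelium, fell by 0.64 on the log2 scale (limma adjusted p = 0.0168). It did not pass without Cre array 1 or 3 (limma adjusted p = 0.0548 and 0.053) or by the methods' t-test (0.0542). Gpx3, the secreted plasma enzyme, had a log2 difference of 0.01 (limma adjusted p = 0.968).

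The peroxiredoxins reduce peroxides through a reactive cysteine that thioredoxin restores in most of them. Of the 6 tested, Prdx3 and Prdx5 were higher, Prdx4 and Prdx6 were lower, and Prdx1 and Prdx2 did not pass. Prdx1, the major cytosolic member, had log2 signals of 17.14, 16.98 and 17.07 on the control arrays and 17.19, 17.39 and 17.18 on the Cre arrays. Its groups did not overlap, yet the log2 difference of 0.19 did not pass (standard error 0.09, limma adjusted p = 0.12). The 4 Prdx1 probes had log2 differences of 0.07 to 0.55, and the mean of the probes, 0.30, did pass (limma adjusted p = 0.0396). With limma's trend and robust options the brightest probe passed as well (limma adjusted p = 0.0426).

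The mitochondrial Prdx3 rose by 0.42 on the log2 scale (limma adjusted p = 0.00385), and Prdx5, found in mitochondria, peroxisomes and cytosol, by 0.39 (limma adjusted p = 0.00874). With 75th percentile scaling Prdx5 was at 0.28 and no longer passed (limma adjusted p = 0.05). Prdx4, the peroxiredoxin of the endoplasmic reticulum, fell by 0.93 (limma adjusted p = 0.000148), and Prdx6, which is recharged by glutathione, by 0.56 (limma adjusted p = 0.00736). A dimmer Prdx4 probe had a log2 difference of -0.32. Prdx2 had a log2 difference of -0.08 (limma adjusted p = 0.385), and a dimmer probe of the same transcript had 0.05. Another probe filed under that symbol lies on the opposite strand and entered only the counts over probes and the mean over probes.

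The thioredoxin group changed by less than 2-fold throughout. Txnrd1, the cytosolic thioredoxin reductase, had log2 signals of 14.64, 14.47 and 14.36 on the control arrays and 15.09, 15.11 and 14.80 on the Cre arrays. The groups did not overlap in this 1.42-fold rise (log2 difference 0.51, standard error 0.12, limma adjusted p = 0.0125). A dimmer Txnrd1 probe, at 0.27, had overlapping groups and did not pass (limma adjusted p = 0.21). Txnrd3, the reductase that also carries a glutaredoxin domain, was higher by 0.73 (limma adjusted p = 0.00239). Txn1, cytosolic thioredoxin itself, had log2 signals of 15.46, 15.37 and 15.32 against 15.32, 15.37 and 15.22. Its groups overlapped (log2 difference -0.08, standard error 0.08, limma adjusted p = 0.406).

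Txnip, which encodes a protein that binds thioredoxin and lowers glucose uptake, had log2 signals of 14.41, 14.71 and 14.79 on the control arrays and 14.26, 14.28 and 14.31 on the Cre arrays. All Cre arrays were below all control arrays, and the fall of 0.35 on the log2 scale passed narrowly (standard error 0.11, limma adjusted p = 0.0369). Without control array 2 or 3, or without any single Cre array, the limma adjusted p was 0.0772 to 0.11. Without the filter on dim probes it was 0.0716 and by the methods' t-test 0.0731. The mitochondrial pair, Txn2 and Txnrd2, had log2 differences of 0.16 and 0.16 and did not pass (limma adjusted p = 0.0795 and 0.17).

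Of the genes that make and recharge glutathione, Gss was higher and Gclc, Gclm and Gsr did not pass. Gss, the synthetase of the last step, had log2 signals of 11.94, 11.85 and 11.70 on the control arrays and 12.42, 12.55 and 12.29 on the Cre arrays. The groups did not overlap in this 1.5-fold rise (log2 difference 0.59, standard error 0.10, limma adjusted p = 0.00393). Gclc, the catalytic subunit of the rate-limiting ligase, had log2 signals of 11.89, 11.62 and 11.54 against 11.59, 11.61 and 11.35, and these overlapped (log2 difference -0.17, standard error 0.12, limma adjusted p = 0.305).

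Gclm, the modifier subunit of that ligase, had log2 signals of 14.44, 13.91 and 13.74 on the control arrays and 14.77, 14.54 and 14.25 on the Cre arrays. The first control array lay above the lowest Cre array, and the log2 difference of 0.49 did not pass (standard error 0.22, limma adjusted p = 0.105). Without that control array the difference was 0.70 and passed (limma adjusted p = 0.0255). Gsr, the reductase that recharges glutathione, had log2 signals of 15.14, 14.90 and 14.77 against 15.02, 15.29 and 15.15, which overlapped (log2 difference 0.22, standard error 0.12, limma adjusted p = 0.187).

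Of the remaining enzymes Nqo2, a quinone reductase, was lower and Nqo1 and Srxn1 did not pass. Nqo2 fell by 0.87 on the log2 scale (limma adjusted p = 0.000247). Nqo1, the related quinone reductase that serves as a standard readout of NRF2, had log2 signals of 10.70, 9.97 and 9.92 on the control arrays and 10.60, 10.58 and 10.02 on the Cre arrays. The first control array was the highest of all 6, and the groups overlapped (log2 difference 0.20, standard error 0.26, limma adjusted p = 0.54). Srxn1, the sulfiredoxin that repairs overoxidised peroxiredoxins, had log2 signals of 15.05, 14.66 and 14.55 against 15.37, 15.16 and 14.83. Here too the first control array lay above the lowest Cre array (log2 difference 0.37, standard error 0.19, limma adjusted p = 0.145).

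In Gclm, Srxn1 and Nqo1 alike the first control array was the highest of its group. In all 3 genes the third Cre array was the lowest of its group. The pattern is not particular to these genes, since both features also held in other members, among them Cat, Gstm1, Gstm4, Gpx8 and Sod3.

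The glutathione S-transferases were the largest family and changed in both directions. Of 18 tested, 7 were higher, 5 were lower and 6 did not pass, and the range of log2 differences was -2.14 to 1.64. The mu class held 5 of the 7 rises, among them the 2 of more than 2-fold. The theta class held 2 of the 5 falls, and 2 of the 4 of more than 2-fold. Gstm2 had log2 signals of 10.55, 10.78 and 10.69 on the control arrays and 12.44, 12.44 and 12.07 on the Cre arrays. The groups lay apart in a 3.12-fold rise (log2 difference 1.64, standard error 0.13, limma adjusted p = 0.000192). Gstm6 had log2 signals of 8.0, 7.96 and 7.94 against 9.45, 9.34 and 8.93, also without overlap. It rose 2.42-fold (log2 difference 1.28, standard error 0.14, limma adjusted p = 0.000737).

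Gstm1, the most studied mu class enzyme, had log2 signals of 13.32, 12.97 and 12.95 on the control arrays and 13.75, 13.60 and 13.37 on the Cre arrays. The groups were apart by a small margin, and the rise of 0.49 passed (standard error 0.14, limma adjusted p = 0.0297). It no longer passed without control array 2 or 3 or without Cre array 1 or 2 (limma adjusted p = 0.0771 to 0.0937), without the filter on dim probes (0.0716) or by the methods' t-test (0.0751). The file places this probe on chromosome 5, whereas a dimmer Gstm1 probe on chromosome 3 had a log2 difference of 0.61. Gstm4 and Gstm3 were higher by 0.70 and 0.43 on the log2 scale (limma adjusted p = 0.0126 and 0.0166), and Gstm3 did not pass without control array 3 (limma adjusted p = 0.0556). Gstm5 had a log2 difference of -0.31 that did not pass (limma adjusted p = 0.0707) but did without control array 3 (-0.41, limma adjusted p = 0.028). With all arrays it passed as lower under 75th percentile scaling, limma's trend and robust options and normexp (limma adjusted p = 0.0487, 0.0445 and 0.0424).

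In the theta class, Gstt1 had log2 signals of 13.41, 13.66 and 13.60 on the control arrays and 11.63, 11.25 and 11.37 on the Cre arrays. It was the member that fell furthest, 4.42-fold (log2 difference -2.14, standard error 0.12, limma adjusted p = 6.71e-05). Gstt3 had log2 signals of 11.43, 11.68 and 11.60 against 10.06, 9.73 and 10.19. Its groups did not overlap in a 2.98-fold fall (log2 difference -1.58, standard error 0.14, limma adjusted p = 0.000297). Gstt2 was higher by 0.75 (limma adjusted p = 0.0262), in 9 of 15 settings. Without control array 1 or Cre array 1 or 3 its limma adjusted p was 0.0654 to 0.0692, and its dimmer probe, at 0.37, had overlapping groups and did not pass (limma adjusted p = 0.183). Gstt4 had a log2 difference of -0.14 (limma adjusted p = 0.62).

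Both classes lie in tight clusters, so the differences can be read along the chromosome by probe position. In the mu cluster on chromosome 3, Gstm5 stood at the start, Gstm6 44.2 kb from it, Gstm3 65.2 kb, Gstm2 83.1 kb, Gstm1 114 kb and Gstm4 145 kb. The Gstm1 position is that of its dimmer probe, which the file places in the cluster, and its plotted difference is that of the brighter probe. All but Gstm5 and the untested Gstm7 were higher on the Cre arrays. In the theta cluster on chromosome 10, Gstt3 and Gstt1 were 9.59 kb apart and both fell, whereas Gstt4 at 40.8 kb did not pass and Gstt2 at 58.2 kb was higher by its brighter probe. Paralogs within these clusters are similar in sequence, and whether a probe also bound RNA of a neighbour was not tested.

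**Figure D3:**
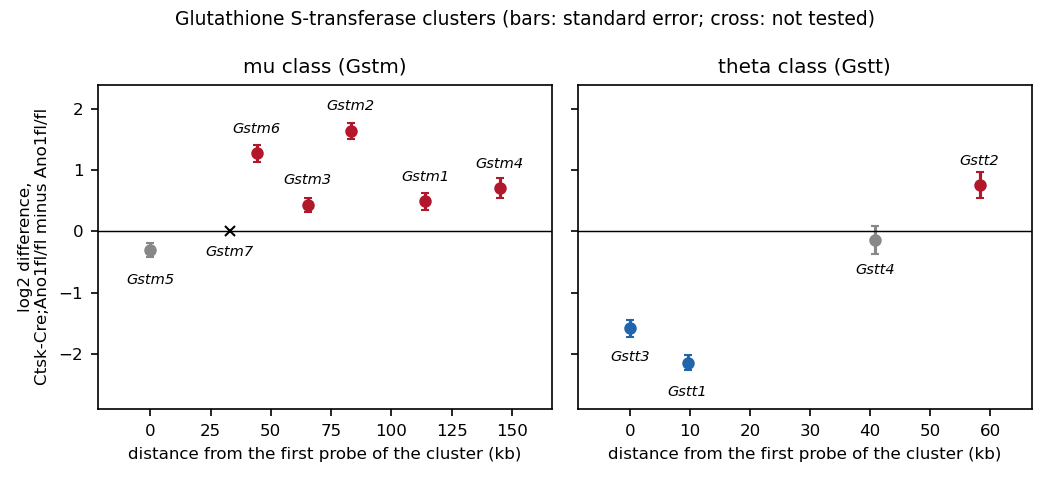
The log2 difference, Ctsk-Cre;Ano1fl/fl minus Ano1fl/fl (vertical axis, bars for the standard error), against distance in kb from the first probe of the mu and theta transferase clusters. Red genes were higher and blue genes lower at a limma adjusted p under 0.05, and the cross is Gstm7, which was not tested. Neighbours Gstt3 and Gstt1 both fell and Gstt2, 58.2 kb from the first probe, rose by its brighter probe.

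Outside these classes, Gstk1, the kappa class enzyme of mitochondria and peroxisomes, had log2 signals of 10.54, 10.34 and 10.33 on the control arrays and 9.13, 8.96 and 9.20 on the Cre arrays. The groups lay apart in a 2.47-fold fall (log2 difference -1.31, standard error 0.10, limma adjusted p = 0.000176). Gsta2, of the alpha class, had log2 signals of 6.72, 6.47 and 6.31 against 5.26, 5.44 and 5.22. This 2.28-fold fall (log2 difference -1.19, standard error 0.12, limma adjusted p = 0.000576) was 1.5-fold with normexp. Gsta3 of the same class was higher by 0.56 (limma adjusted p = 0.0324) but passed in only 7 of 15 alternative settings. Without control array 2 or 3, or Cre array 1 or 2, its limma adjusted p was 0.0891 to 0.0986. A further tested probe gave 0.61 (limma adjusted p = 0.0164), and the mean of 0.15 over all 3 probes (limma adjusted p = 0.389) includes 1 that was above background on 1 array only. Gsto2 was lower by 0.35 on the log2 scale (log2 difference -0.35, limma adjusted p = 0.0409), also in only 7 of 15 settings, with a limma adjusted p of 0.109 to 0.118 when the same arrays were left out. Gsto1, Gstz1, Gstp1 and Gstp2 did not pass, with log2 differences of 0.21, 0.19, -0.10 and -0.19. Gsto1 passed in 6 of 15 settings, among them without Cre array 3 (limma adjusted p = 0.0415), and the dimmer probes of Gsto1 and Gstz1 passed as higher, by 0.45 and 0.37 (limma adjusted p = 0.00653 and 0.0261). The Gstp1 probe also lists a transcript of Gstp2, so the pi class pair is uncertain. Of the microsomal transferases Mgst2 was lower by 0.49 (log2 difference -0.49, limma adjusted p = 0.00682), and Mgst1 and Mgst3 both had log2 differences of 0.18 and did not pass.

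As a description, 17 members were compared by their textbook compartment. They include superoxide dismutases, thioredoxins and thioredoxin reductases beside enzymes that remove peroxides. In mitochondria, Sod2 and Prdx3 were higher and Txn2 and Txnrd2 did not pass, and the 4 log2 differences ran from 0.16 to 2.36. Of 8 members of the cytosol and nucleus, 1 was higher, 3 were lower and 4 did not pass (Txnrd1 higher, Sod1, Gpx1 and Prdx6 lower), with a range of -0.57 to 0.51. In the endoplasmic reticulum Gpx7 and Gpx8 were higher and Prdx4 was lower. Outside the cell Sod3 was higher and Gpx3 did not pass. Gpx2 (lower, log2 difference -0.64), Prdx5 (higher, 0.39), Cat and Gpx4 (neither passed) were not among the 17, so these counts and ranges do not cover them.

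Genes that supply or surround these enzymes were read from 7 further lists, against the same shares over all genes. Of 24 tested NRF2 regulators and targets outside the members, 11 were higher, 5 were lower and 8 did not pass, with a median log2 difference of 0.28. The largest rises were 10.3-fold for Trib3, a pseudokinase gene induced in the stress response of ATF4 (log2 difference 3.37), 8.66-fold for Maff, a small MAF protein that can pair with NRF2 (3.11), and 3.32-fold for Slc7a11, the cystine transporter (1.73).

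Of 21 tested genes of cystine, cysteine and glutathione turnover, 11 were higher, 2 were lower and 8 did not pass, with a median of 0.45. Cth, which makes cysteine by transsulfuration, had log2 signals of 3.63, 3.93 and 3.65 on the control arrays and 10.79, 10.72 and 11.02 on the Cre arrays (log2 difference 7.10, limma adjusted p = 2.68e-06). It was well above background on 1 control array only and met the filter through the Cre arrays, so the size of this difference is uncertain. Chac1, which breaks glutathione down inside the cell, had log2 signals of 8.43, 9.06 and 8.64 against 13.58, 13.48 and 13.71, a 29.4-fold rise (limma adjusted p = 1.49e-05). The dipeptidase genes went opposite ways, Dpep1 higher by 3.51 and Dpep2 lower by 1.08 on the log2 scale (log2 difference -1.08).

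Of 17 tested NADPH supply genes, 4 were higher, 5 were lower and 8 did not pass, with a median of -0.04. Aldh1l2, a mitochondrial folate enzyme that yields NADPH, was not well above background on any control array and was at least 29.2-fold higher on the Cre arrays. Mthfd2 was higher by 1.23 and Idh1, the cytosolic isocitrate dehydrogenase, had a log2 difference of -1.20. Of 15 tested NADPH oxidase and other superoxide source genes, 4 were higher and 6 lower, with a median of -0.05. Nos2, the inducible nitric oxide synthase, Noxa1, an oxidase activator, and Rac2, a small GTPase of the phagocyte oxidase, were higher by 2.91, 2.73 and 1.07 on the log2 scale. Mpo, the neutrophil granule peroxidase, fell 10.6-fold (log2 difference -3.41). It is itself 1 of the 13 neutrophil markers above, of which 9 were lower and 2 higher, so that list is not separate from it.

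Of 29 tested glutaredoxins and thioredoxin-like genes, 10 were higher, 7 were lower and 12 did not pass, with a median of 0.02. Msrb3, a methionine sulfoxide reductase of the endoplasmic reticulum and mitochondria, was not well above background on any control array and was at least 3.02-fold higher on the Cre arrays. Of the stress-induced sestrins Sesn2 and Sesn3 were higher, with log2 differences of 1.06 and 0.94, and Sesn1 was lower with -1.31, and Arrdc3, an arrestin relative of Txnip, had -1.31. Of 21 tested selenoprotein and selenocysteine synthesis genes, 6 were higher, 2 were lower and 13 did not pass, with a median of 0.00. Dio3, a deiodinase, was at least 1.79-fold higher and below the background mark on every control array. Of 18 tested metal-binding and other antioxidant genes 5 were higher and 5 lower, with a median of -0.08. Cp, which encodes ceruloplasmin, Cygb, encoding cytoglobin, and Mt3, a metallothionein, had log2 differences of 2.98, 1.85 and 1.61. Cygb was well above background on 1 control array only and met the filter through the Cre arrays, so the size of its difference is uncertain.

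**Figure D4:**
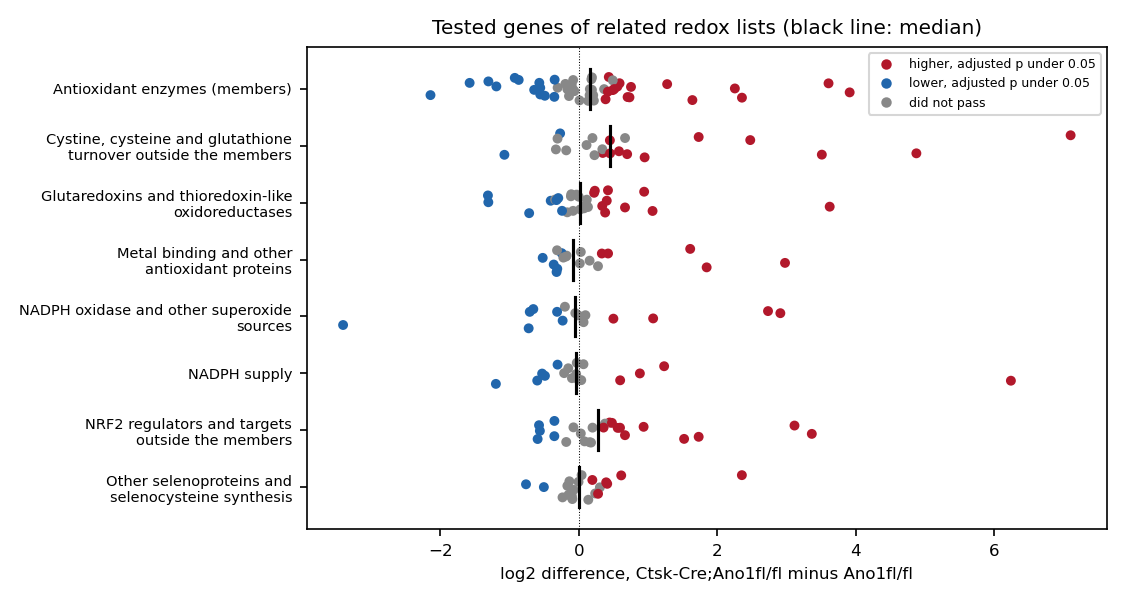
Each point is a tested gene, placed by its log2 difference, Ctsk-Cre;Ano1fl/fl minus Ano1fl/fl (horizontal axis), with 1 row per list and a black line at the list's median. Red genes were higher and blue genes lower at a limma adjusted p under 0.05, and the medians run from -0.08 for metal binding to 0.45 for cystine, cysteine and glutathione turnover, beside 0.17 for the members.

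Several probes of a gene could be compared for 19 of the 50 tested members. In 16 of them all probes had the same sign. In Prdx2, Txn2 and Txnrd2 the signs differed, and no gene had probes of opposite sign that each kept the groups apart. Among members that passed, dimmer probes of Gstt2, Prdx4, Txnip and Txnrd1 did not pass. Among members that did not pass, dimmer probes of Gsto1, Gstz1, Prdx1 and Txnrd2 passed as higher. The dimmer probes of Gstt2, Prdx4 and Sod1 carry transcript accessions other than RefSeq's. Of the 10 genes that changed by more than 2-fold, each was tested by 1 probe alone, so those changes have no check by a further probe. Gstm6 has another probe on the same transcript that was not above background on any of the 6 arrays, and with the mean of both its log2 difference was 0.84, which leaves 5 members higher by more than 2-fold.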

How the data were processed

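Total RNA of cultured osteoclasts from 3 mice per group was labelled with Cy3 and hybridised to Agilent SurePrint G3 mouse arrays. The scanner intensity files were deposited with processed signals made by Agilent Feature Extraction 10.7.1.1 (submitters' processing notes), which removes background within an array and gives spots near background a surrogate value. They are linear, with no step between arrays. In the deposited series matrix the intensities equal the spot medians (largest difference 0).

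Here processed signals were log2 transformed and quantile normalized, the algorithm that the methods name, with limma 3.58.1 in R 4.3.3. Control spots were left out, 143 to 252 outlier spots per array were set missing, spots of a probe were averaged and 14 probes with a missing value were dropped. The scanner's mark for well above background had to hold for at least 0.5 of a probe's spots on an array. A gene was read by its brightest probe over the 6 arrays. Groups were compared with limma's linear model and empirical Bayes, with Benjamini-Hochberg adjustment over all 20645 genes tested. Simulated data with known changes tested the scripts. With 3 arrays against 3, an exact two-sided permutation test cannot go below 0.1, so none was used. Precision is limited by the 6 arrays, and the p-values measure the spread between these 3 mice per group. For a gene dim on every array of a group, the fold was bounded by setting that group to the lowest signal that passed the mark on each array.

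Array values, differences and p-values are given for the members that changed by more than 2-fold at an adjusted p under 0.05 and, whatever their change, for 16 central genes (Gclc, Gclm, Gss, Gsr, Gpx1, Gpx4, Prdx1, Txn1, Txnrd1, Txnip, Sod1, Sod2, Cat, Nqo1, Srxn1 and Gstm1). Other members are given by their differences, ranges and counts. Up to 3 rises and 3 falls of more than 2-fold without overlap are named in each of 7 related lists, and Sesn3 was added after its value was seen. The members, these lists, the marker lists, the compartments and the named genes were chosen with earlier results of these data known.

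Names and mm9 positions of genes come from the array files. Of the 87 member probes, 74 matched a RefSeq accession, all under the same symbol. Promoter windows are from RefSeq (GRCm38.p6). The sequence of 1 probe and 1 marker list are not reported here. Other software was Python 3.11.15 with pandas 2.3.3 and matplotlib 3.10.9, and the R package data.table in version 1.17.8. Alternatives were other background corrections and scalings, the series matrix, other rules for probes, limma's trend and robust options, the methods' t-test, a replicate block and leaving out each array in turn.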

Additional observations from a re-analysis of the deposited data

How the results depend on the processing

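The 29 members that passed kept their direction in all 15 alternative settings, and 21 of them passed in every one. Of the 21 that did not pass, 13 did not pass in any setting. Counted over the 74 tested member probes in place of genes, 25 were higher and 17 lower, the latter including a probe filed under Prdx2 that lies on the opposite strand. With 75th percentile scaling 14 members were higher and 15 lower, and the median of all genes was -0.12 in place of -0.06. No share of all genes that passed is given for this scaling, for the left-out arrays or for the replicate block, so those counts describe the members alone. Leaving out 1 array at a time gave 13 to 16 higher and 10 to 13 lower members, 6 to 6 higher and 4 to 5 lower by more than 2-fold, and log2 differences of -0.147 to 0.0581 for Cat (0.0581 without control array 1, 0.0139 without Cre array 3). The 8 that lost the call in at least 1 setting were Gpx2, Gsta3, Gstm1, Gstm3, Gsto2, Gstt2, Prdx5 (limma adjusted p = 0.05 with 75th percentile scaling) and Txnip, the 8 that gained it were Gclm, Gstm5, Gsto1, Gstp2, Gstz1, Prdx1, Srxn1 and Txn2, and the cause was not tested. The methods' t-test gave 34 of 50 members at an unadjusted p under 0.05 and 25 after Benjamini-Hochberg adjustment over all genes, against 11541 and 9674 of 20645 genes. Low signals limit the folds of Gpx7, Gpx8, Sod3 and Gsta2.

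The labels do not say that a replicate number marks a shared litter or day. Over all genes tested, same-numbered arrays did not deviate together (correlations of their deviations 0.00, -0.06 and -0.08), which does not settle it for single members. With the replicate block, 18 members were higher and 12 lower. Gclm (limma adjusted p = 0.0206) and Srxn1 (0.0332) then passed and Txnip did not (0.0531). The block lowered the standard error of some members (Gclm from 0.22 to 0.10, Srxn1 from 0.19 to 0.09) and raised that of others (Gpx1 from 0.07 to 0.08).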

Other observations

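Markers of 4 further cell types were read on the same arrays, and their part in the results was not tested. Mast cell and basophil markers were lower on the Cre arrays in 5 of 6 tested genes (median log2 difference -2.74), with summed signals of 6646 to 8815 on the control arrays and 612 to 3297 on the Cre arrays, and no array showed Tpsab1 or Mcpt4 above background. Of 8 T and NK cell markers 2 were higher and 2 lower, with sums of 3469 to 3802 against 1931 to 2362. Of 7 endothelial markers 1 was higher and 2 lower, with sums of 6734 to 8311 against 3491 to 4075, and Tek was above background on no array. Of 5 dendritic cell markers 2 were higher and 1 lower, with sums of 10617 to 12103 against 11902 to 15588, and no array showed Xcr1 above background.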
